A study of Xenopus laevis with 20 samples.

Results

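The 100 rows described here are those with the lowest signals in Gata5-GR animal caps relative to uninjected caps, of 15491 rows on a single-colour expression array of Xenopus laevis. For each row the 4 same-numbered differences, Gata5-GR minus uninjected, were taken on the normalized log2(signal + 16) scale, and the 100 rows with the lowest median were kept. The uninjected and Gata5-GR values chose the rows, so their difference between these groups is a description and is given no test. A row is 1 probe set and is called by its position in the deposited table, counted from 1, because the listed identifiers were found not to follow the genes they name. Over 1017 genes listed with both an L and an S copy, which the genome duplication of this frog has left, the median levels of the copies had a correlation across genes of 0.008. The 97 rows listed as ribosomal proteins, among the most abundant transcripts of any cell, had their median at percentile 42.6 of all rows. No row is therefore given a gene name, role or sequence, and the caps could not be checked against marker genes.

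The animal cap is the roof of the blastula, whose cells become ectoderm unless they receive another signal. Gata4 and Gata5 belong to a family of zinc-finger proteins that bind GATA motifs and are known for driving endoderm and heart mesoderm, and both can turn caps towards those fates. Dkk1 is a secreted protein that blocks canonical Wnt signalling at its co-receptor. A GR fusion carries the hormone-binding part of the glucocorticoid receptor, which keeps the protein inactive until dexamethasone is added. A change that begins while cycloheximide blocks protein synthesis needs no newly made protein in between. A transcript that becomes less abundant must be made more slowly or lost faster.

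There were 20 samples, 4 in each of 5 groups, and the labels give no strain or allele. The groups were uninjected caps, caps from embryos injected at the 1-cell stage with Gata5-GR mRNA, with Gata4-GR mRNA, with Dkk1 mRNA, and with Gata4-GR and Dkk1 mRNA together, at 10 ng of each mRNA. Caps of all groups, the controls included, were cut at stage 9 and kept for 2.5 hours in cycloheximide and dexamethasone, so no group shows the level without either drug. No group received a control mRNA, and a difference from uninjected caps also holds any effect of injection. Dkk1 had no GR part and could act from the time of injection. Its effects, and any effect of injection itself, could thus begin before cycloheximide was present. Whether replicates came from different embryo batches is not said in the labels. The p-values then reflect only how far these samples spread, which may be technical. In RNA from whole caps, fewer cells of a type and less RNA per cell cannot be told apart.

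The 100 rows included dim and bright rows, but none of the brightest on the array, where the highest median level was 12.89. Their signals ran from 0.5 to 3962.2. On the 12 arrays that did not choose them (Gata4-GR, Dkk1 and Gata4-GR+Dkk1), the median level of a row was 6.15 among the 100 rows and 6.56 among all rows. With all rows cut by brightness on these arrays into 4 bins of 25%, 11 of the 100 rows were in the dimmest bin, 49 in the next, 18 in the third and 22 in the brightest. The brightest were row 348, row 2704 and row 695, with median levels of 10.01, 9.95 and 9.50. The dimmest were row 13397, row 8469 and row 626, with median levels of 4.29, 4.41 and 4.44. Row 13397 had signals of 1.3 to 13.4 on those 12 arrays, all below the added 16, so that a large part of any change in it is hidden by the scale.

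The differences that chose the rows were not equal in the 4 pairs. The median of the 4 differences ran from -1.76 in row 406 to -0.54 in the last member. Over the 100 rows the median difference was -0.85 in pair 1, -0.67 in pair 2, 0.0057 in pair 3 and -1.49 in pair 4. Gata5-GR was lower in 99 of the 100 rows in pair 1, in 98 in pair 2, in 50 in pair 3 and in 98 in pair 4. Of the rows, 45 were lower in 4 of 4 pairs (5.62% of all rows) and 55 in 3 of 4, and in 50 of these 55 the pair that went the other way was pair 3. All 4 Gata5-GR arrays lay below all 4 uninjected arrays in 23 of the 100 rows (0.762% of all rows). Nothing is read from these shares, since the same values picked the rows. Rows 7519, 4378 and 5588 lay just inside the limit, with medians of -0.548, -0.545 and -0.543, and rows 3624, 10345 and 10160 lay just outside it, with medians of -0.543, -0.543 and -0.541. The limit thus falls at no gap in the values.

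A single pair could also be kept out of the choice. With 100 rows picked again from pairs 2 to 4, their median difference in pair 1 was -0.42, and 83 of them were lower there, against 49.6% of all rows. Rows picked without pair 2 had a median of -0.39 in it, with 83 lower (48.7% of all rows). Rows picked without pair 4 had a median of -0.70 in it, with 78 lower (45.4% of all rows), but that median was -0.17 with a pseudocount of 1 and -0.21 with no normalization between arrays. Rows picked without pair 3 had a median of 0.14 in it, with only 39 lower (51.7% of all rows). The difference was therefore seen again in the pair left out for 3 of the 4 pairs and not for pair 3. In the 3 pairs that picked them, the same rows had medians from -0.89 to -0.66. Of the 100 members, 61 to 79 were picked again when a pair was left out.

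Uninjected replicates 4 and 1 were the arrays on which the rows stood highest. The median level of the 100 rows was 7.41 in uninjected replicate 4 and 6.85 in replicate 1, but 6.16 and 6.29 in replicates 2 and 3, while the median of all rows was 6.56 on each array. In the Gata5-GR arrays it was 6.04, 5.49, 6.19 and 5.67 in replicates 1 to 4. Gata5-GR replicate 3 and uninjected replicate 3 thus differed little, and the groups overlapped. Uninjected replicate 4 held the highest level of all 20 arrays in 66 of the 100 rows, and the rows made up 1.2% of its summed signal against 0.42 to 0.771% in the other uninjected arrays. The deposited signals differed in level between arrays. The median signal was 100.2 and 95.1 in uninjected replicates 4 and 1 against 72.4 and 84.5 in replicates 2 and 3. Among uninjected arrays, the rows thus stood higher where the median signal was higher. Gata4-GR replicates 3 and 4 had higher median signals than replicates 1 and 2. Their median levels of the rows were also higher (6.31 and 6.10 against 5.90 and 5.96). Dkk1 replicate 3 had the highest median signal of its group, 74.7, and the lowest median level, 6.10. Dkk1 replicate 4 had a median signal of 60.7 and the highest median level of its group, 6.81. Gata4-GR+Dkk1 replicate 3 had the lowest median signal of its group, 62.8, and the highest median level, 6.39. The Gata5-GR arrays showed neither order. The part of array brightness in the choice of rows was not tested.

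The groups that did not choose the rows lay at different heights. The median level of the 100 rows was 5.90, 5.96, 6.31 and 6.10 in Gata4-GR replicates 1 to 4. It was 6.26, 6.37, 6.10 and 6.81 in Dkk1 replicates 1 to 4, and 6.12, 5.94, 6.39 and 6.13 in Gata4-GR+Dkk1 replicates 1 to 4. The mean of the array medians was 6.39 ± 0.30 (SD, n = 4) with Dkk1, 6.14 ± 0.18 (SD, n = 4) with Gata4-GR+Dkk1, 6.07 ± 0.18 (SD, n = 4) with Gata4-GR, 5.85 ± 0.32 (SD, n = 4) with Gata5-GR and 6.68 ± 0.58 (SD, n = 4) without injection. Neighbours in this order differed by less than 1 SD of the more variable group, and the arrays of neighbouring groups overlapped. The order of the ends is set by the choice of rows.

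**Figure D1:**
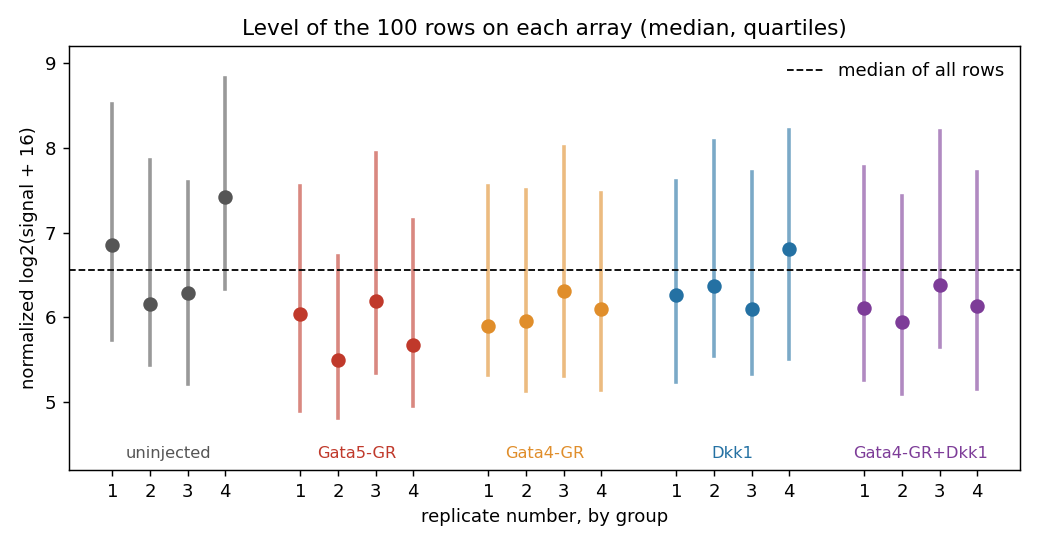
Normalized log2(signal + 16) of the 100 rows on each of the 20 arrays, with a point at the median of the rows and a line from the lower to the upper quartile. Uninjected replicates 4 and 1 had the highest and second highest medians (7.41 and 6.85), Dkk1 replicate 4 stood highest among the arrays that did not choose the rows (6.81), and the dashed line marks the median of all rows (6.56).

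The Gata4 response under Dkk1, Gata4-GR+Dkk1 minus Dkk1, used no array that chose the rows and asked whether rows lowered with Gata5 were also lower with Gata4 when Wnt signalling was inhibited. The fitted log2 differences of the 100 rows had a median of -0.14, with quartiles of -0.35 and 0.013, and ran from -1.11 to 0.48. Over all rows the median was -0.0021, with quartiles of -0.075 and 0.075. The difference was below 0 in 73 of the 100 rows against 50.9% of all rows. It was lower in 4 of 4 same-numbered pairs in 13 rows (5.82% of all rows) and higher in 4 of 4 pairs in 0 rows (6.34% of all rows). All 4 Gata4-GR+Dkk1 arrays lay below all 4 Dkk1 arrays in 5 of the 100 rows, where 0.691% of all rows did, and above them in 0, where 0.678% of all rows did. None of the 100 rows was called by limma at an adjusted p under 0.05: 0 were called lower, as in 0% of all rows, and 0 higher, against 0.0129% of all rows. At an unadjusted p under 0.05, 6 of the 100 rows were lower (1.13% of all rows) and 0 higher (1.07% of all rows). With the replicate number fitted as a block, 9 were lower (1.83% of all rows) and 0 higher (1.84% of all rows). The lowest adjusted p of a member was 1 (limma).

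This lower level was again uneven between pairs. The median difference of the 100 rows was -0.054 in pair 1, -0.48 in pair 2, 0.30 in pair 3 and -0.41 in pair 4. The rows below 0 numbered 56, 89, 24 and 84 in these pairs, where all rows had between 49.01 and 51.02% below 0. Pair 3 had the opposite direction, as the rule's own pair 3 had no difference. The median over the rows moved to -0.048 without Dkk1 replicate 4, to -0.076 without Gata4-GR+Dkk1 replicate 2 and to -0.26 without Gata4-GR+Dkk1 replicate 3. With a replicate number left out of all groups, it was -0.015 without number 2, -0.060 without number 4 and -0.30 without number 3. The difference was below 0 in 55 of the 100 rows without Dkk1 replicate 4 and in 52 without replicate number 2. With no normalization between arrays the median was -0.055, with 61 rows below 0, and all rows had a median of 0.086. Rows ranked 1 to 10 by the rule had a median of -0.22, rows 11 to 50 of -0.19 and rows 51 to 100 of -0.084.

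**Figure D2:**
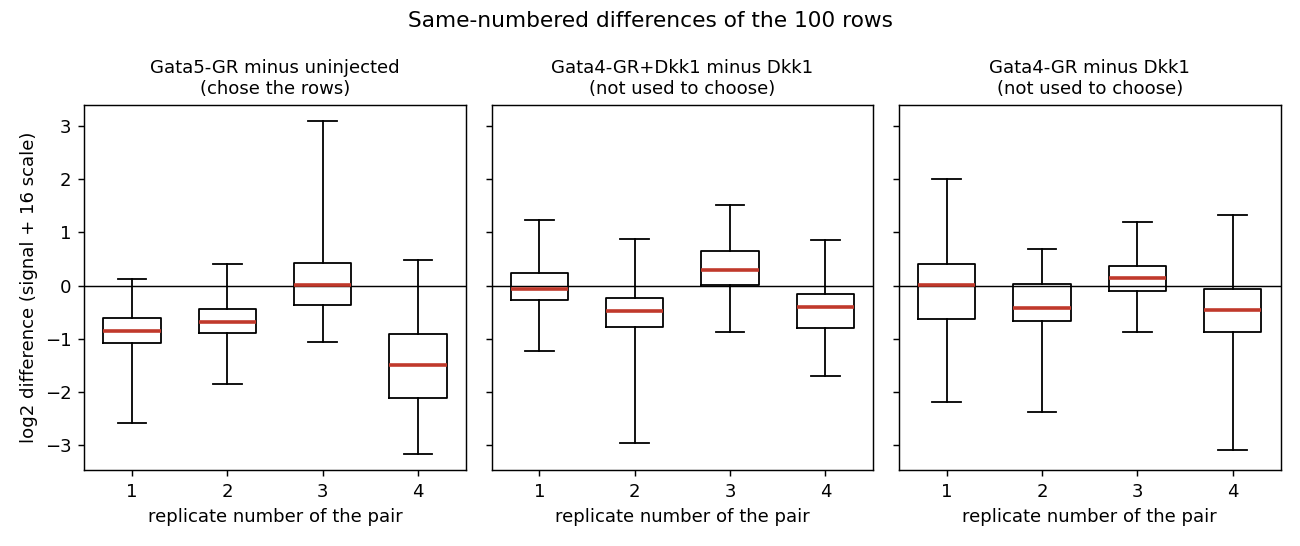
Same-numbered log2 differences of the 100 rows in each of the 4 pairs, for the comparison that chose the rows and for 2 comparisons of other arrays; boxes give the quartiles, red lines the median and whiskers the lowest and highest row. The median was near 0 or above it in pair 3 of every comparison shown (0.0057, 0.30 and 0.15).

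**Figure D3:**
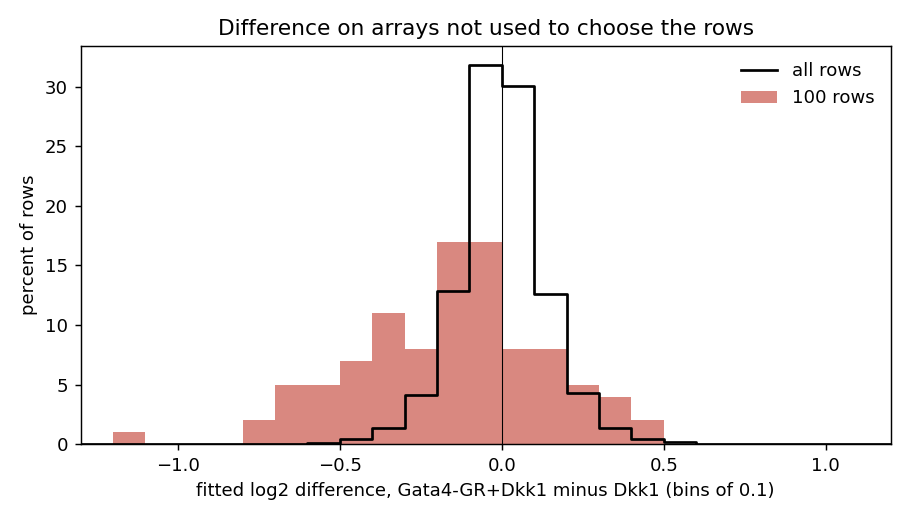
Fitted log2 differences, Gata4-GR+Dkk1 minus Dkk1, in bins of 0.1, as a percent of the 100 rows (bars) and of all 15491 rows (line). The 100 rows ran from -1.11 to 0.48 and had their median at -0.14, against -0.0021 for all rows.

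Gata4-GR without Dkk1 was also set against Dkk1, again on arrays that did not choose the rows. Both comparisons share the Dkk1 arrays and so are not independent of each other. Gata4-GR minus Dkk1 differs in both injected mRNAs, so it shows the effect of neither alone. The 100 rows had a median of -0.17, with quartiles of -0.45 and 0.078, and ran from -2.09 to 1.12. All rows had a median of -0.0028, with quartiles of -0.12 and 0.12. The difference was below 0 in 71 of the 100 rows (50.5% of all rows), lower in 4 of 4 pairs in 15 (8.02% of all rows) and higher in 4 of 4 pairs in 7 (8.33% of all rows). All 4 Gata4-GR arrays lay below all 4 Dkk1 arrays in 6 rows (1.13% of all rows) and above them in 2 rows (0.962% of all rows). By limma 0 rows were called lower and 0 higher, against 0.0129% of all rows in each direction. At an unadjusted p under 0.05, 9 were lower (2.1% of all rows) and 2 higher (2.52% of all rows). With the replicate number fitted as a block, 13 were lower (4.69% of all rows) and 2 higher (5.41% of all rows). The median differences in pairs 1 to 4 were 0.013, -0.42, 0.15 and -0.46, so pairs 2 and 4 held the lower level here too. The median moved to -0.093 without Dkk1 replicate 4 and to -0.26 without Dkk1 replicate 1. With a replicate number left out of all groups, it was -0.056 without number 4 and -0.28 without number 3. With no normalization between arrays it was 0.069, with 38 of the 100 rows below 0. All rows shifted by a median of 0.29 in that setting, so that the 100 rows still lay 0.22 below all rows.

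The 2 rows above all Dkk1 arrays in Gata4-GR caps were row 406 and row 8685; the latter is named for this count, after its values were seen. Row 406, first by the median of the 4 rule pairs, read 999.1, 702.3, 1017.8 and 1195.8 in the Gata4-GR arrays and 237.5, 662.8, 524.2 and 485.6 in the Dkk1 arrays. Its log2 difference was 0.68 (SE 0.59; limma, adjusted p = 0.968). Row 8685 read 190.2, 106, 168.3 and 271 in the Gata4-GR arrays and 22.6, 58.3, 88.2 and 58.9 in the Dkk1 arrays. Its log2 difference was 1.12 (SE 0.46; limma, adjusted p = 0.964). Neither difference passed the test. Of all rows, 0.962% lay above all Dkk1 arrays in this way, so nothing is read from the count of 2.

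Adding Dkk1 to Gata4-GR left the median of the 100 rows near that of the whole array. The median of Gata4-GR+Dkk1 minus Gata4-GR was 0.016, with quartiles of -0.14 and 0.18, against a median of -0.0010 over all rows. The difference was below 0 in 49 of the 100 rows (50.3% of all rows), lower in 4 of 4 pairs in 4 (6.84% of all rows) and higher in 4 of 4 pairs in 11 (6.47% of all rows). The arrays did not separate in any of the 100 rows: 0 had all 4 below all 4 (0.723% of all rows) and 0 all 4 above (0.704% of all rows). By limma 0 rows were called lower (0% of all rows) and 0 higher (0.00646% of all rows). At an unadjusted p under 0.05, 0 were lower (1.65% of all rows) and 0 higher (1.36% of all rows). With the replicate number fitted as a block, 0 were lower (4.07% of all rows) and 1 higher (3.12% of all rows). The direction of this median was not stable. It was -0.067 without Gata4-GR+Dkk1 replicate 3, and -0.039 without replicate number 3. A median near 0 does not show that Dkk1 was without effect on single rows, whose differences ran from -0.64 to 0.98. Rows ranked 1 to 10 by the rule had a median of -0.23, rows 11 to 50 of 0.027 and rows 51 to 100 of 0.047. The 45 rows lower in 4 of 4 rule pairs had a median of 0.13, and the 55 lower in 3 of 4 had -0.037. Differences between these parts were not tested.

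Beside uninjected caps, which chose the rows, the other injected groups were also lower by the fitted difference, though not all of them in every pair. Since they share the uninjected arrays with the rule, these values are only set side by side. The median log2 difference of the 100 rows from uninjected caps was -0.74 in Gata5-GR, -0.48 in Gata4-GR, -0.42 in Gata4-GR+Dkk1 and -0.26 in Dkk1 caps. It was below 0 in 91 of the 100 rows for Gata4-GR (50.3% of all rows) and in 90 for Dkk1 (49.1% of all rows). The median differences in pairs 1 to 4 were -0.71, -0.17, -0.027 and -1.07 for Gata4-GR. They were -0.60, -0.23, 0.18 and -1.08 for Gata4-GR+Dkk1, and -0.62, 0.21, -0.13 and -0.69 for Dkk1. The group mean lay between those of uninjected and Gata5-GR caps in 73 rows for Gata4-GR, in 88 for Dkk1 and in 88 for Gata4-GR+Dkk1. It was nearer to the Gata5-GR mean in 66 rows for Gata4-GR, in 64 for Gata4-GR+Dkk1 and in 30 for Dkk1. The group mean lay above that of uninjected caps in 9 rows for Gata4-GR, in 10 for Dkk1 and in 5 for Gata4-GR+Dkk1. Rows picked for uninjected levels above Gata5-GR levels tend to have other group means between them by the choice itself. The counts of group means between, nearer and above were not taken for all rows, so nothing is read from them. How large a part the choice of rows has in these differences was not tested. Gata5-GR caps were in turn below Gata4-GR caps by a median of -0.24, where the Gata5-GR arrays chose the rows.

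The 10 rows with the lowest medians were rows 406, 3307, 2704, 657, 3815, 3814, 3476, 604, 726 and 3087. Row 406 had signals of 1169.5, 406.7, 194.9 and 2661.3 in uninjected replicates 1 to 4 and of 143.1, 126.6, 922 and 626.1 in Gata5-GR replicates 1 to 4. Its differences were -2.35, -1.79, 2.21 and -1.74, so the groups overlapped and the median rests on pairs 1, 2 and 4. By the fitted mean difference, which counts pair 3 in full, row 406 had -0.92, and row 657 was the lowest of the 100 rows at -1.63. Row 3307 behaved like it, with signals of 947.6, 249.7, 84.5 and 2529 in uninjected replicates and of 97.4, 91.2, 822.9 and 602.6 in Gata5-GR replicates. In row 3307 pair 3 had a difference of 3.09, larger in size than any of the other 3, which were -2.58, -1.49 and -1.72.

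Of these 10 rows only rows 657 and 604 were lower in all 4 pairs. Row 657 read 772.9, 231.7, 392.1 and 1858.1 in uninjected replicates and 176.3, 83.5, 238.9 and 184 in Gata5-GR replicates. In Gata4-GR+Dkk1 and Dkk1 caps row 657 had normalized levels of 7.96 ± 0.62 and 8.15 ± 0.46 (SD, n = 4), a log2 difference of -0.18 (SE 0.44; limma, adjusted p = 1). Row 604 read 79.1, 86.2, 65.8 and 366.2 in uninjected replicates, 17.8, 26.6, 37.2 and 28.3 in Gata5-GR replicates, 30.5, 96.9, 57.7 and 66.1 in Dkk1 replicates and 38.9, 21.2, 30.3 and 47.1 in Gata4-GR+Dkk1 replicates. Its level was 6.42 ± 0.50 in Dkk1 caps and 5.70 ± 0.22 in Gata4-GR+Dkk1 caps (SD, n = 4), with the arrays overlapping. The log2 difference was -0.72 (SE 0.33; limma, unadjusted p = 0.0404, adjusted p = 1).

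The other 8 of the 10 rows gave Gata4-GR+Dkk1 minus Dkk1 differences on both sides of 0. Row 2704 had -0.74 with a standard error of 0.48, but Gata4-GR+Dkk1 replicate 2, at a signal of 162 against 829 to 1021.5 on the other 3 arrays of its group, holds most of that. Rows 3087 and 726 had -0.44 and -0.40, with standard errors of 0.26 and 0.34. Rows 3815 and 3814 had -0.26 and -0.15, row 3476 had 0.012, row 406 had 0.12 and row 3307 had 0.31, each smaller in size than its standard error. None of the 10 passed the test, the adjusted p being 1 in each (limma).

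A few of the 100 rows lay lower on every array with a Gata mRNA than on every array without one. All 12 Gata4-GR, Gata5-GR and Gata4-GR+Dkk1 arrays lay below all 8 uninjected and Dkk1 arrays in 4 of all 15491 rows (0.0258%), of which 3, rows 15271, 555 and 348, are among the 100. The split was narrow in each. The nearest arrays with and without a Gata mRNA read 5.94 and 5.96 in row 15271. They read 6.61 and 6.64 in row 555, and 10.05 and 10.08 in row 348. The uninjected and Gata5-GR arrays chose these rows, so the part that bears on them is the other 12 arrays. There, all 8 arrays with Gata4-GR lay below all 4 Dkk1 arrays in 4 of the 100 rows, the same 3 and row 8638, where 0.174% of all rows did, and above them in 0, where 0.181% of all rows did. This count was chosen after the values were seen. A pseudocount of 1 or 64 could not change it, since after quantile normalization it depends only on a row's rank on each array. With arrays centred on their medians instead, row 626 met it as well, and the share of all rows was 0.504%. With no normalization between arrays only row 8638 met it, and 0 rows had all 12 arrays below all 8.

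Row 15271 had the most even difference in the 4 rule pairs, at -0.84, -0.81, -0.82 and -0.73. It read 96.9, 45.7, 68.6 and 73.2 in uninjected replicates 1 to 4, and 31.3, 21.2, 31.2 and 29.2 in Gata5-GR replicates 1 to 4. It read 21.4, 24.8, 47.7 and 35.4 in Gata4-GR replicates, 51, 45.9, 44.2 and 43.4 in Dkk1 replicates, and 45.6, 21.7, 34.1 and 36.3 in Gata4-GR+Dkk1 replicates. As deposited, Gata4-GR replicate 3 and Gata4-GR+Dkk1 replicate 1 lay within the Dkk1 range, and after normalization both lay below it. The normalized level was 6.14 ± 0.18 in Dkk1 caps, 5.71 ± 0.23 in Gata4-GR+Dkk1 caps and 5.47 ± 0.21 in Gata4-GR caps (SD, n = 4). Gata4-GR+Dkk1 minus Dkk1 was -0.43 with a standard error of 0.15 and was lower in 4 of 4 pairs (limma unadjusted p = 0.00941, adjusted p = 1). Gata4-GR minus Dkk1 was -0.67 (SE 0.15; limma, unadjusted p = 0.000245, adjusted p = 0.421). Neither passed the test over all rows.

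Row 555 had normalized levels of 6.90 ± 0.25 in Dkk1 caps, 6.22 ± 0.33 in Gata4-GR+Dkk1 caps and 6.05 ± 0.34 in Gata4-GR caps (SD, n = 4). Its signals were 69.3, 117.9, 80.6 and 85.4 in Dkk1 replicates and 81.9, 37.8, 53.9 and 49.1 in Gata4-GR+Dkk1 replicates, so 1 array overlapped before normalization. Gata4-GR+Dkk1 minus Dkk1 was -0.67 (SE 0.25; limma, unadjusted p = 0.0138, adjusted p = 1). In uninjected caps row 555 read 140.1, 109.7, 114 and 342.7, with replicate 4 apart from the others.

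Row 348 was the brightest of the 100 rows. It read 925.3, 1231.2, 1026 and 1322.6 in Dkk1 replicates, 858.6, 495.9, 836.6 and 1064.9 in Gata4-GR+Dkk1 replicates, and 391.6, 744.5, 1240.9 and 1019.4 in Gata4-GR replicates. The signals overlapped as deposited and did not after normalization. The Gata4-GR+Dkk1 minus Dkk1 difference was -0.59 (SE 0.28; limma, unadjusted p = 0.0484, adjusted p = 1).

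Row 8638 had the largest differences among the 100 rows in both comparisons with Dkk1. It read 1053, 811.6, 862.2 and 957.1 in Dkk1 replicates, 740.6, 333.7, 388.7 and 416.2 in Gata4-GR+Dkk1 replicates, and 347, 151.9, 624.9 and 162.5 in Gata4-GR replicates. These groups were apart in the deposited signals as well. Gata4-GR+Dkk1 minus Dkk1 was -1.11 and Gata4-GR minus Dkk1 was -2.09, each with an SE of 0.63 (by limma, adjusted p = 1 and 0.964). The standard error draws on all groups and is wide because the row varied within several, Gata4-GR among them. Signals ran from 151.9 to 624.9 in Gata4-GR, from 75.9 to 786.4 in Gata5-GR and from 175.3 to 1411.5 in uninjected caps. In row 8638 uninjected replicate 4 was the lowest uninjected array, where most of the 100 rows had their highest.

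Row 1142 was the remaining row with all 4 Gata4-GR+Dkk1 arrays below all 4 Dkk1 arrays. It read 40.9, 39.4, 35.5 and 45.8 in Dkk1 replicates and 23.9, 21.8, 23.9 and 24.2 in Gata4-GR+Dkk1 replicates. The log2 difference was -0.63 (SE 0.32; limma, adjusted p = 1). In Gata4-GR caps without Dkk1 its replicate 1 read 55.1, within the Dkk1 values after normalization, so this row did not part both Gata4-GR groups from Dkk1.

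**Figure D4:**
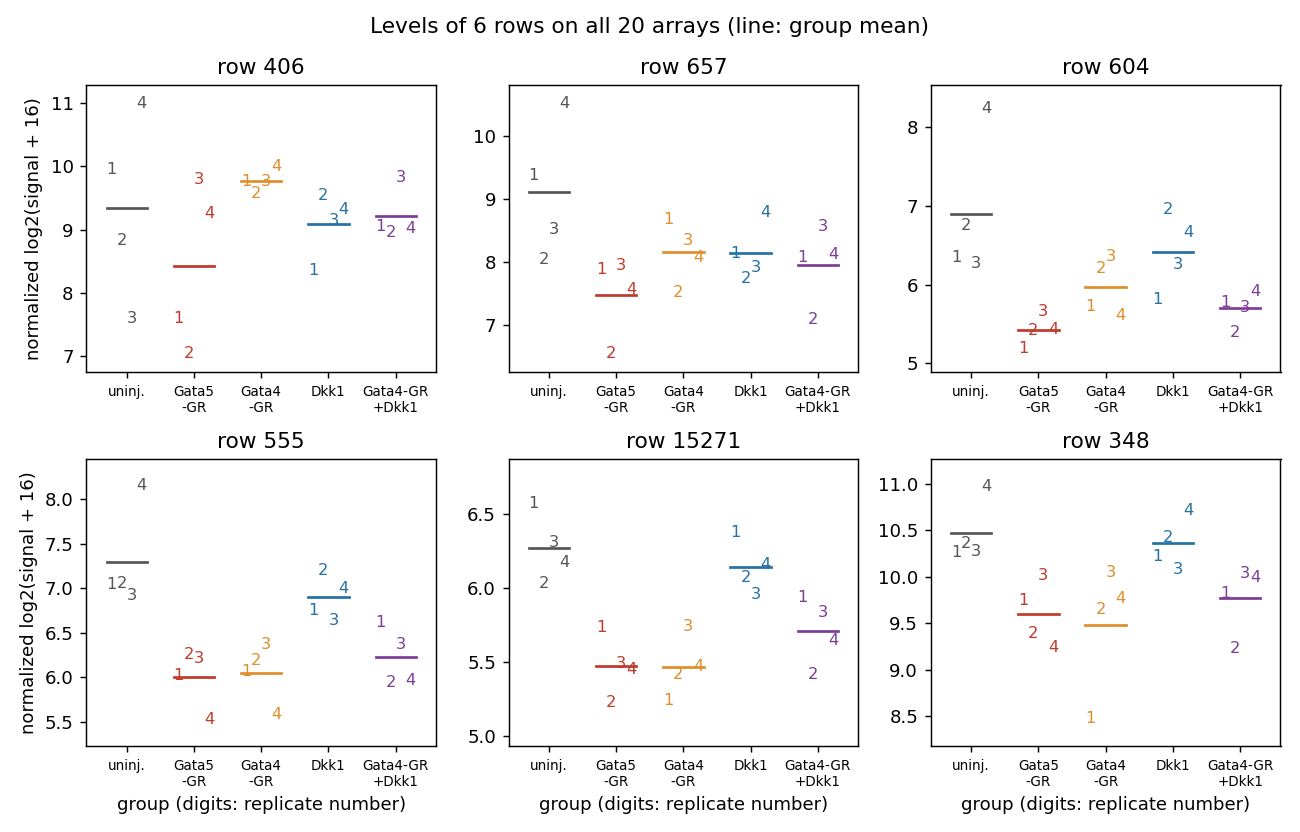
Normalized log2(signal + 16) of 6 of the 100 rows on all 20 arrays, each digit being the replicate number of an array and each line a group mean; each panel has its own scale. In row 406 replicate 3 is lowest among uninjected and highest among Gata5-GR arrays, whereas in rows 15271, 555 and 348 all 12 arrays with a Gata mRNA lie below the 8 without. The nearest arrays with and without a Gata mRNA lie close together (5.94 and 5.96, 6.61 and 6.64, and 10.05 and 10.08 in these rows). The uninjected and Gata5-GR arrays chose the rows, and the panels of rows 15271, 555 and 348 were drawn for this split. With no normalization between arrays, 0 rows had it.

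The 100 rows varied more than other rows on arrays that did not choose them. Their SD over the 12 arrays had a median of 0.40, with quartiles of 0.32 and 0.52, against 0.24 for all rows, with quartiles of 0.18 and 0.30. Of the 100 rows, 32 were among the 5% of rows with the largest SD. This SD also holds differences between the groups, and the rows compared were not matched for brightness. A choice by extreme differences also favours rows that vary, and its part in this SD was not tested. The share of variance between replicate numbers had a median of 32.7% in the 100 rows, with quartiles of 20.7 and 52%, and of 42.5% in all rows, with quartiles of 24 and 64.4%. These ranges overlap, and their difference was not tested. It was highest in rows 14032, 12047 and 7190, at 86.9, 79.8 and 78.7%, and in row 15271 it was 7.15%.

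Many of the rows also moved together on those arrays. With group means taken off, 2 of the 100 rows had a mean correlation of 0.17 over the 12 arrays, and 21.4% of the pairs had a correlation over 0.5. For 2 rows of the whole array the mean was 0.0002. Normalization gives all arrays the same mean, which holds that value near 0, so it is no baseline for the 100 rows. The arrays share their normalization and their replicate numbers, and the correlations are a description. A row's correlation with the median profile of the others was over 0.5 in 45 of the 100 rows, had a median of 0.47 and was below 0 in 13. Neither this count nor the share of pairs over 0.5 was taken for other rows. Whether they are particular to the 100 rows was not tested. The members were highest of the 12 arrays in Dkk1 replicate 4 in 33 rows, where 8.73% of all rows were, and in Dkk1 replicate 2 in 16 rows, where 6.12% of all rows were. Gata4-GR+Dkk1 replicate 3 was the highest in 12 rows (7.4% of all rows). Dkk1 replicate 4 had a median signal of 60.7 before normalization. Among the 10 rows with the lowest medians, rows 406 and 3307 had a correlation of 0.92, rows 3815 and 3814 of 0.91, and rows 657 and 3476 of 0.024.

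The rows were gathered at the start of the deposited table. Of the 100 rows, 54 were in the first of 4 equal parts, which holds positions 121 to 3993, and 20, 16 and 10 were in the next 3 parts. The 5% of rows with the largest SD were spread evenly, with 23.2, 26.7, 25.9 and 24.1% in these parts. There were 6 pairs of adjacent positions among the 100 rows. Rows 656 and 657 had a correlation of 0.97 over the 12 arrays with group means taken off, rows 3565 and 3566 of 0.92, rows 3814 and 3815 of 0.91, rows 8224 and 8225 of 0.80, rows 657 and 658 of 0.52, and rows 8469 and 8470 of 0.12. Neighbouring rows of the whole table had a mean correlation of 0.034. Adjacent positions can hold probe sets of 1 transcript or of related transcripts, which was not tested here, so the 100 rows may stand for fewer than 100 transcripts.

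**Figure D5:**
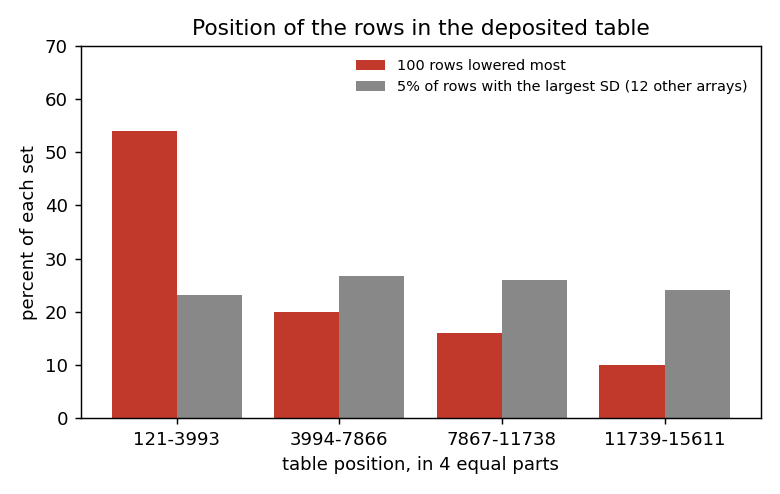
Percent of the 100 rows (red) and of the 5% of rows with the largest SD on the 12 arrays that did not choose them (grey) in each of 4 equal parts of the deposited table, by position. The first part holds 54% of the 100 rows and 23.2% of the rows with a large SD.

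Subsets of the rows were set side by side for Gata4-GR+Dkk1 minus Dkk1. The 54 rows of the first part had a median Gata4-GR+Dkk1 minus Dkk1 difference of -0.19, with 41 below 0, and the other 46 rows had -0.084, with 32 below 0. The 45 rows lower in 4 of 4 rule pairs had a median of -0.18, with 37 below 0, and the 55 rows lower in 3 of 4 had -0.10, with 36 below 0. The 66 rows highest in uninjected replicate 4 had a median of -0.14, with 48 below 0, and the other 34 rows had -0.14, with 25 below 0. Differences between these subsets were not tested.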

How the data were processed

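The authors deposited 1 intensity for each probe set and array, unlogged; array medians differ in these values, and no source used here names the software that made them. Targets were labelled with biotin, per the labels' protocols. After 120 control rows were dropped, intensities were converted to log2(signal + 16) and put through quantile normalization across arrays. On this scale the fold change of a dim row is understated. Group means over all 20 arrays were fitted with limma 3.58.1 (R 4.3.3). Its moderated tests were two-sided, with p-values adjusted by Benjamini-Hochberg for 15491 rows. The code was checked on simulated data, which had independent errors and no effect of replicate number, unlike these arrays. Groups and replicate numbers came from titles. Same-numbered arrays deviated together, with correlations of 0.11 to 0.63 in the comparisons tested, so the replicate number was also fitted as a block. Standard errors, p-values and calls are from the fit without this block unless it is named. The number of arrays limits the precision.

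The members, the comparisons and the rule for named rows were chosen with earlier results of these data known. Named were the 10 rows with the lowest median, the 3 on each side of the limit, members called in any comparison, members without overlap between Gata4-GR+Dkk1 and Dkk1 arrays, the 3 brightest and 3 dimmest, and the 3 that varied most with replicate number. The member called was row 15271, only in comparisons with uninjected caps when the number was fitted as a block; those arrays chose it, so that call is not used. Alternatives were other pseudocounts, scalings, filters, fits and limits, and leaving out each array.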

Additional observations from a re-analysis of the deposited data

Results flagged for a closer look

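In each group of 4 arrays, the levels of the 28 rows chosen by the rule for named rows and the median over the 100 rows were searched for an array far from the other 3. Of 145 groups of 4 values, 10 held one. Chance would give about 7.25 for rows not chosen by their values. These rows were so chosen, in part on the uninjected and Gata5-GR arrays, and some of them move together. That number is therefore no baseline for the 10. Uninjected replicate 4 stood apart in row 8638 (7.24 against 9.75 to 10.23), row 555 (8.15 against 6.92 to 7.06) and row 348 (10.97 against 10.26 to 10.36). Gata4-GR replicate 3 stood above its group in row 3815 (6.57 against 5.25 to 5.47) and in its neighbour row 3814 (6.08 against 5.34 to 5.38), and Gata4-GR replicate 4 in row 3307 (10.08 against 9.43 to 9.52). In Gata4-GR+Dkk1 caps, replicate 2 was low in row 2704 (7.70 against 9.81 to 10.02) and high in row 13397 (4.9997 against 4.15 to 4.24). Replicate 3 was high in row 406 (9.82 against 8.96 to 9.05), and replicate 1 in row 626 (4.64 against 4.16 to 4.19). Rows 13397 and 626 are among the 3 dimmest, with signals below the added 16 on these arrays. The cause of these values was not tested.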

How the results depend on the processing

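No member was called in the 3 comparisons of arrays that did not choose the rows, under any alternative run. The median of Gata4-GR+Dkk1 minus Dkk1 was below 0 in 23 of 23 alternatives (-0.30 to -0.015), and ran from -0.26 to -0.048 with 1 array left out. Gata4-GR minus Dkk1 was below 0 in 22 of 23, and ran from -0.26 to -0.093 with 1 array left out. Gata4-GR+Dkk1 minus Gata4-GR was below 0 in 4 of 23, ran from -0.067 to 0.088 with 1 array left out, and was -0.15 with no normalization between arrays, where all rows shifted by -0.21. In these 3 comparisons the replicate block changed no call of a member. Each group holds every replicate number in 1 array, so the block could not move these medians, nor could fitting only the groups compared. Both are among the 23 alternatives, where they had to repeat the main medians of -0.14, -0.17 and 0.016. For row 15271 in Gata4-GR minus Dkk1 the blocked adjusted p was 0.0671 (limma), and it was 0.0671 to 1 over its alternatives. Leaving out 1 replicate number was added after the data were seen.

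The choice of rows depended on the setting. Of the 100 members, 26 were picked again with a pseudocount of 1, 63 by the difference of group medians, and 61 to 79 with 1 pair left out. With a pseudocount of 1 the pair 4 median of rows picked without it was -0.17. With no normalization it was -0.21, and that of pair 1 was -0.78. With no normalization, 1 member had both Gata4-GR groups below Dkk1 and 0 had all Gata arrays below all others. With rows above the 25th and 50th percentile of brightness, 89 and 40 members were left. Except where fewer rows or arrays were used, the cause was not tested. Dim rows are limited by the added 16.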
